A study of Mus musculus with 6 samples.

Results

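Bone morphogenetic proteins (BMPs) are secreted growth factors of the TGF-beta superfamily, and a set of secreted antagonists binds them outside the cell and keeps them from their receptors. The 9 genes described here are 6 antagonists, Chrdl1, Chrdl2, Chrd, Nog, Grem1 and Fst, and 3 ligands, Bmp2, Bmp4 and Bmp6. They were taken by name, and all 9 were found among the 55401 genes of the deposited count table through their Ensembl identifiers. The list was drawn up with the differences between the genotypes in these same libraries already known. The comparison of the genotypes for the 9 genes is therefore given as a description, with counts set beside the same counts over all genes and with no test of the list.

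The tissue was articular cartilage taken from the knees of mice at 10 weeks of age. The 3 control libraries (CTRL1 to CTRL3) have the genotype label WT, and the 3 others (CKO1 to CKO3) are labelled as knockouts of adseverin, an actin-severing and actin-capping protein encoded by Scin. Mice of both groups were given tamoxifen from 8 weeks of age, once a day for 5 days, at 1.5 mg per 10 g of body weight. What drives the deletion, which part of the gene is deleted and the sex of the mice are not stated in the labels used here. They also do not say whether each library is 1 mouse, so the spread between libraries may be partly technical. RNA of all cells of the tissue was measured together, so fewer cells of a type and less RNA per cell cannot be told apart.

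BMP ligands act as dimers that bring type I and type II receptor kinases together, which then phosphorylate SMAD1, SMAD5 and SMAD9. In joints, BMP signalling drives cartilage formation and chondrocyte maturation, and noggin and the related antagonists limit it, as in the interzone where the joint forms. Chordin and the chordin-like proteins bind ligands through cysteine-rich repeats, and chordin is cut by the BMP1 and tolloid proteases, which frees the ligand.

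Read totals were 22664828 to 31014996 per library. Scin, the targeted gene, was at 185 to 219 CPM in CTRL and at 29.4 to 39.1 CPM in CKO, and no library went against its label. CPM is the read count scaled to the size of the library, here with TMM factors. Of 8 markers of chondrocytes, the cells of the labelled tissue, Col2a1, Acan, Comp, Sox9, Col11a1 and Hapln1 were at 708 CPM or more in every library. Col9a1 was at 116 to 246 CPM, and Matn3 was low, at 2.45 to 8.56 CPM. The summed level of 8 osteoblast and osteocyte markers was 33052 to 40272 CPM, so the libraries also hold RNA of bone. CTRL2 stood apart in 6 skeletal muscle markers, whose sum was 1313 CPM there and 24.1 to 221 CPM in the other 5 libraries. Y-linked Ddx3y was at 136 to 155 CPM in all 6 libraries and Xist had at most 4 reads, so the libraries were alike in these sex-linked genes, and Chrdl1 lies on the X chromosome.

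The 9 genes lie apart from one another in the genome (build GRCm38). Chrdl1 is on chromosome X (143285674 to 143394262), Chrdl2 on chromosome 7 (100006172 to 100034728), Chrd on chromosome 16 (20733127 to 20742384) and Nog on chromosome 11 (89300638 to 89302332). Grem1 is on chromosome 2 (113746164 to 113758646), as is Bmp2 (133552159 to 133562885), and Fst is on chromosome 13 (114452290 to 114458951), as is Bmp6 (38345107 to 38500302). Bmp4 is on chromosome 14 (46383520 to 46390669). All 9 are annotated as protein coding, and counts cover all exons of a gene.

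Because ligands and antagonists belong to families, the coding sequences were compared for stretches that a read could not place. Among the 9 genes the longest identical run between any pair was 17 bases, between Fst and Bmp4, and Chrdl1 and Chrdl2 shared at most 15 bases, as did Bmp2 and Bmp4. Bmp6 shared longer runs with ligands outside the 9 genes, and 2 of them are shown because they mark where it most resembles a relative. A run of 30 bases between Bmp6 and Tob1 is a repeat of the CAG triplet and is not shown.
Bmp6 and Bmp7: cccttcatggtggccttcttcaagg
Bmp6 and Bmp5: ctgggatggcaggactggatcat
Of these relatives, Bmp7 and Bmp5 were at 5.89 to 12.4 CPM and 98.3 to 154 CPM. Some members also overlap a gene on the opposite strand, and the sources used here do not say whether the counting used strand. Bmp6 shares 224 of its 3900 exon bases with Txndc5, which was at a mean of 587 CPM, and Chrd shares 239 of 6258 with Thpo, at a mean of 5.44 CPM, so reads in those stretches are uncertain.

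Upstream sequence was available for 4 of the 9 genes from RefSeq (GRCm38.p6): Bmp4, Bmp6, Chrd and Grem1. The 250 bases before the start site are shown for a highly expressed antagonist, Grem1, a weakly expressed one, Chrd, and a ligand, Bmp4, 5′ to 3′ on the strand of the gene. The Bmp6 window lies inside the annotated gene and is left out. Capitals mark GGCGCC, a GC-rich element that SMAD complexes of the BMP branch can bind, and GTCT or its reverse complement AGAC, the short SMAD element. No 2 of the marked matches overlap.
Grem1, chr2:113758649-113758898, minus strand: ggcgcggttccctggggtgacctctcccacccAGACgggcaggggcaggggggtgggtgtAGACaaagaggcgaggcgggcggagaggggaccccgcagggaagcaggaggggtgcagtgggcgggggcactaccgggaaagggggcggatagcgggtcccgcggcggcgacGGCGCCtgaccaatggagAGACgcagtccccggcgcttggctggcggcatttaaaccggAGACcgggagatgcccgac
Chrd, chr16:20732877-20733126, plus strand: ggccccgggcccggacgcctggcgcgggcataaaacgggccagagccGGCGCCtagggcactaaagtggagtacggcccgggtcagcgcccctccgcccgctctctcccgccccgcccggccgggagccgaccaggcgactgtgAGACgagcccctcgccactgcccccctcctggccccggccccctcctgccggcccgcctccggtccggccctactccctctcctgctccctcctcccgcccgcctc
Bmp4, chr14:46390670-46390919, minus strand: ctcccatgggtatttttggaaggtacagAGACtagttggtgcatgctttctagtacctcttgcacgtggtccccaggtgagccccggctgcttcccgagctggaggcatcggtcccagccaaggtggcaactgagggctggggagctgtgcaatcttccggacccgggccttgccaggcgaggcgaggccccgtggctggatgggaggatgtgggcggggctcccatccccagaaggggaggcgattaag
GGCGCC occurs 1 time in the Grem1 window, 1 time in the Chrd window and 0 times in the Bmp4 window, and 9.59% of the 32851 upstream windows of the same length in that table hold it. GTCT on either strand occurs 4 times for Grem1, 1 time for Chrd and 1 time for Bmp4, and 82.9% of all windows hold it. The 3 windows are 72%, 78% and 63.2% G and C, against a median of 52.4% over all windows. Grem1 and Chrd both hold the rarer element.

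Levels were compared between genes as CPM per kilobase of exon. In the CTRL libraries Grem1, the gremlin antagonist, and Chrdl2, a chordin-like antagonist, were the most abundant of the 9, at 43.4 ± 9.66 and 41.7 ± 10.6 CPM per kilobase (mean ± SD, n = 3 per group here and below), and their ranges overlapped. Bmp2 followed at 22.9 ± 3.23 and Bmp6 at 11.2 ± 2.97 CPM per kilobase, and neither range overlapped that of the gene before it. Bmp4 stood at 7.37 ± 0.450 and Chrdl1 at 5.65 ± 0.271 CPM per kilobase, and every CTRL library had Bmp4 above Chrdl1. Noggin (Nog) was at 3.797 ± 1.40 CPM per kilobase, while chordin (Chrd) at 0.969 ± 0.341 and follistatin (Fst), which binds activins as well as BMPs, at 0.793 ± 0.375 CPM per kilobase were the lowest and did not differ beyond their spread.

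The order of the means in the CKO libraries was the same except at 2 places. Chrdl2, at 58.6 ± 18.1 CPM per kilobase, stood above Grem1, at 42.9 ± 4.27, with overlapping ranges. Chrdl1, at 9.56 ± 0.926 CPM per kilobase, stood above Bmp4, at 5.53 ± 1.51, and here the ranges of 8.70 to 10.5 and 3.91 to 6.91 did not overlap. Its mean was close to that of Bmp6, at 9.66 ± 1.82, whose range of 8.08 to 11.6 held that of Chrdl1. The weakest members had few reads, 45 to 144 per library for Fst and 63 to 231 for Chrd, against 3036 to 6865 for Chrdl2.

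**Figure D1:**
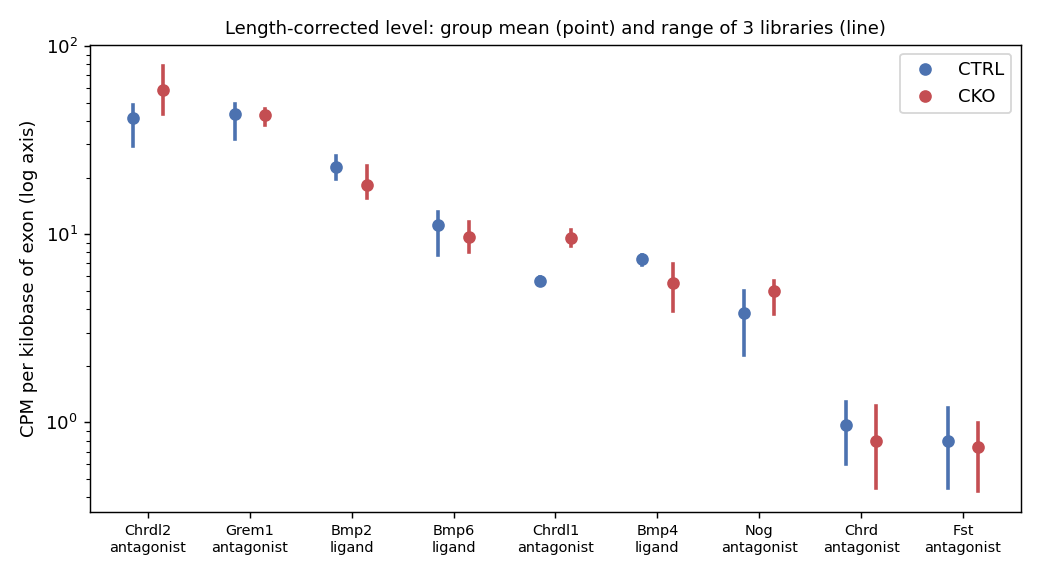
Level of each of the 9 genes in CPM per kilobase of exon (log axis), with the group mean as a point and the range of the 3 libraries as a line, CTRL in blue and CKO in red. Chrdl1 lies below Bmp4 in CTRL and above it in CKO, while Chrd and Fst lie lowest in both groups.

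The genotypes were compared in 1 fit over all genes (edgeR quasi-likelihood test, Benjamini-Hochberg adjustment). Of the 9 genes 0 passed an adjusted p of 0.05, where Scin was the 1 gene of 16260 tested to pass (0.00615%). Chrdl1 was the 1 member at an unadjusted p under 0.05, against 6.5% of all genes. With DESeq2 1 of 9 members passed, again Chrdl1, against 0.54% of genes, and with limma-voom 0 of 9 passed, against 0.00615%. The groups did not overlap for 1 of the 9 genes, or 11.1%, close to the 12.3% of all genes tested. That gene, Chrdl1, was higher in CKO. Of all genes tested, 6.41% were higher without overlap and 5.89% were lower without overlap. All 9 passed the filter on low counts. Of the 6 antagonists 3 had a log2 fold change (CKO minus CTRL) above 0, and all 3 ligands were below 0, with medians of 0.19 and -0.33 beside 0.00 for all genes.

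Chrdl1, the chordin-like antagonist also called neuralin or ventroptin, had a higher level in all 3 CKO libraries but did not pass in the fit over all genes (edgeR adjusted p = 0.268). It measured 40.1, 38.0 and 36.4 CPM in CTRL1 to CTRL3 and 58.8, 63.8 and 71.2 CPM in CKO1 to CKO3. The lowest CKO library stood above the highest CTRL library. The level was 1.69 times that of CTRL, a log2 fold change of 0.76 ± 0.11 (SE). Its libraries lay close together, with a coefficient of variation of 4.81% in CTRL and 9.69% in CKO, beside medians of 9.77% and 9.90% over the 6257 genes with a mean of 20 to 200 CPM. With single libraries left out the log2 fold change was 0.68 to 0.82.

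Chrdl2, the other chordin-like gene, was less uniform. It measured 108, 179 and 171 CPM in CTRL and 159, 197 and 287 CPM in CKO. CTRL1 was the lowest library and CKO3 the highest, and CKO1 lay below CTRL2 and CTRL3. The log2 fold change was 0.49 ± 0.24. It was 0.22 without CKO3 and 0.29 without CTRL1, so single libraries set its size.

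Noggin, which binds BMP2 and BMP4 with high affinity, measured 3.84, 8.51 and 6.95 CPM in CTRL and 6.42, 9.58 and 9.38 CPM in CKO. The groups overlapped, and the log2 fold change was 0.40 ± 0.33. It was 0.13 without CTRL1, again the lowest library, and 0.64 without CTRL2. CTRL1 was also the lowest CTRL library for Grem1, Bmp2 and Bmp6.

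Grem1, a cystine-knot antagonist and a marker of skeletal progenitors, was at 134, 201 and 205 CPM in CTRL and 159, 193 and 182 CPM in CKO. All 3 CKO values lay inside the CTRL range, and the log2 fold change was -0.02 ± 0.16. Chordin was at 6.44, 7.99 and 3.76 CPM in CTRL and 2.79, 7.605 and 4.60 CPM in CKO. Its log2 fold change was -0.27 ± 0.42. Follistatin was at 3.38, 2.06 and 5.47 CPM in CTRL and 1.99, 3.69 and 4.56 CPM in CKO. Its log2 fold change was -0.09 ± 0.46. For both genes libraries of 1 group differed more from each other than the group means did. The direction of Grem1, Chrd and Fst turned when single libraries were left out, to 0.09 for Grem1 and 0.33 for Fst without CTRL3 and to 0.01 for Chrd without CKO1.

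**Figure D2:**
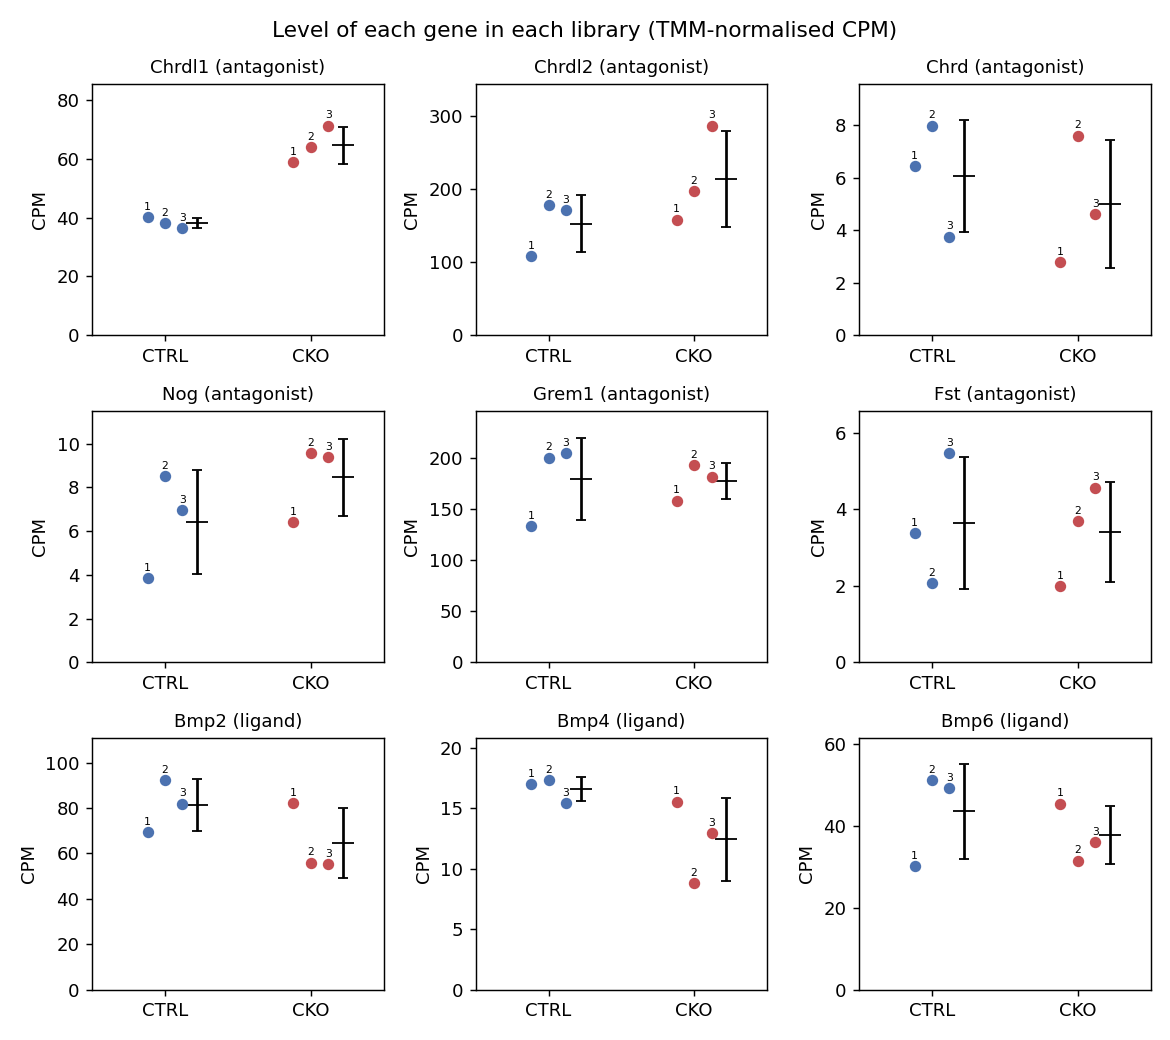
TMM-normalised CPM of each gene in each library, with numbers naming the replicate and the bar beside the points giving the mean and SD of 3 libraries. Chrdl1 is the 1 panel in which the CTRL and CKO points do not overlap, and CKO1 is the highest CKO library in all 3 ligand panels.

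The ligand Bmp2, an inducer of chondrocyte maturation and bone formation, measured 69.5, 92.4 and 82.0 CPM in CTRL and 82.3, 55.9 and 55.5 CPM in CKO. CKO2 and CKO3 lay below every CTRL library, and CKO1 lay inside the CTRL range. The log2 fold change was -0.33 ± 0.18, and it was -0.54 without CKO1 and -0.23 without CKO3.

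Bmp4, the close relative of Bmp2, measured 17.0, 17.3 and 15.4 CPM in CTRL and 15.5, 8.79 and 12.9 CPM in CKO. The overlap between the groups came from CKO1, which was just above CTRL3. The log2 fold change was -0.42 ± 0.22, with -0.61 without CKO1 and -0.22 without CKO2.

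Bmp6, a ligand of the BMP5 to BMP7 group that is also known for its part in iron balance, measured 30.2, 51.2 and 49.1 CPM in CTRL and 45.4, 31.5 and 36.1 CPM in CKO. CTRL1 was the lowest of all libraries, and the log2 fold change of -0.21 ± 0.22 moved to -0.42 without CTRL1 and to -0.36 without CKO1. It was -0.08 without CTRL2, -0.09 without CKO2 and -0.11 without CTRL3. In each of the 3 ligands CKO1 was the highest CKO library.

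Sums of the levels per kilobase show how the 2 kinds of member stood to each other. The 6 antagonists together were at 71.7, 110 and 108 CPM per kilobase in CTRL and 94.9, 118 and 140 in CKO. Grem1 and Chrdl2 made up 85.4% to 89.5% of that sum and Chrdl1 5.01% to 9.17%. The 3 ligands together were at 34.8, 46.8 and 42.5 CPM per kilobase in CTRL and 41.7, 27.7 and 30.6 in CKO, and Bmp2 made up 51.0% to 56.8% of that sum in every library.

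The ratio of antagonists to ligands was 2.06, 2.34 and 2.53 in CTRL and 2.28, 4.24 and 4.58 in CKO. CKO1 lay inside the CTRL range, and CKO2 and CKO3 lay above it. The group means were 2.31 ± 0.237 and 3.70 ± 1.24, a log2 difference of 0.68, with no test because the members were chosen with these values known. It was 0.93 without CKO1 and 0.50 without CKO3. The sums hold only the members chosen, and abundant genes of the same kinds lie outside them. The antagonist Nbl1 was at 156 ± 10.8 CPM per kilobase in CTRL and 120 ± 17.2 in CKO. The chosen antagonists together had means of 96.3 and 118. Twsg1, which binds chordin and BMPs, was at 158 and 164, and the ligand Bmp5 at 31.8 and 27.6. The ratio is thus not that of the whole BMP system.

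The summed level of 8 markers of fibroblasts and synovium was lower in the CKO libraries. It was 423, 463 and 452 CPM in CTRL and 389, 319 and 314 CPM in CKO, so the sums of the groups did not overlap. Pdgfra, at 193, 115 and 118 CPM in CKO, set the order of the CKO sums. Without it, a choice made after the values were seen, the sums were 234, 299.6 and 208 CPM in CTRL and 196, 204 and 197 CPM in CKO, and CKO1 was the highest CKO library for 2 of the 8 markers and the lowest for 5. The 2 were Pdgfra and Dpt, the markers with the highest CPM of the 8, and Dpt was at 118, 96.9 and 89.6 CPM in CKO. The 5 were Thy1, Dpp4, Pi16, Cd34 and Postn, each at 46.5 CPM or less in every library. All 8 had log2 fold changes below 0, 1 of 8 (12.5%) did not overlap between the groups beside 12.3% of all genes, none passed the test, and none was at 0 in all libraries, although Thy1 was under 1 CPM throughout. The 8 chondrocyte markers summed to 25970 to 26682 CPM in CTRL and 27456 to 33613 CPM in CKO, a sum that is mostly Col2a1, with 7 of 8 above 0, and none at 0. The exception was Acan, the aggrecan gene, at 1273, 1322 and 1440 CPM in CTRL and 708, 949 and 989 CPM in CKO. For Acan every CKO library lay below every CTRL library, and for Col2a1, Col9a1 and Hapln1 every CKO library lay above. Thus 50% of the 8 did not overlap, 3 higher and 1 lower, beside 12.3% of all genes tested. An unadjusted edgeR p under 0.05 was found for 3 of 8, beside 6.5% of all genes, and 0 of 8 passed the adjusted threshold. Osteoblast and osteocyte markers summed to 33052 to 39705 CPM in CTRL and 38776 to 40272 CPM in CKO. Adipocyte markers summed to 21.8 to 160 CPM in CTRL and 19.7 to 31.2 CPM in CKO, with Lep at 0. Macrophage markers summed to 605 to 810 CPM in CTRL and 529 to 648 CPM in CKO. Erythroid markers summed to 2755 to 3092 CPM in CTRL and 2874 to 4391 CPM in CKO. A shared direction was not particular to the fibroblast list. All 6 macrophage, all 6 skeletal muscle and all 5 tested adipocyte markers also had log2 fold changes below 0. All 7 erythroid markers were above 0. Below 0 were 5 of 6 endothelial and 4 of 6 pericyte and smooth muscle markers. The part of these cell types in the levels of the ligands and antagonists was not tested.

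**Figure D3:**
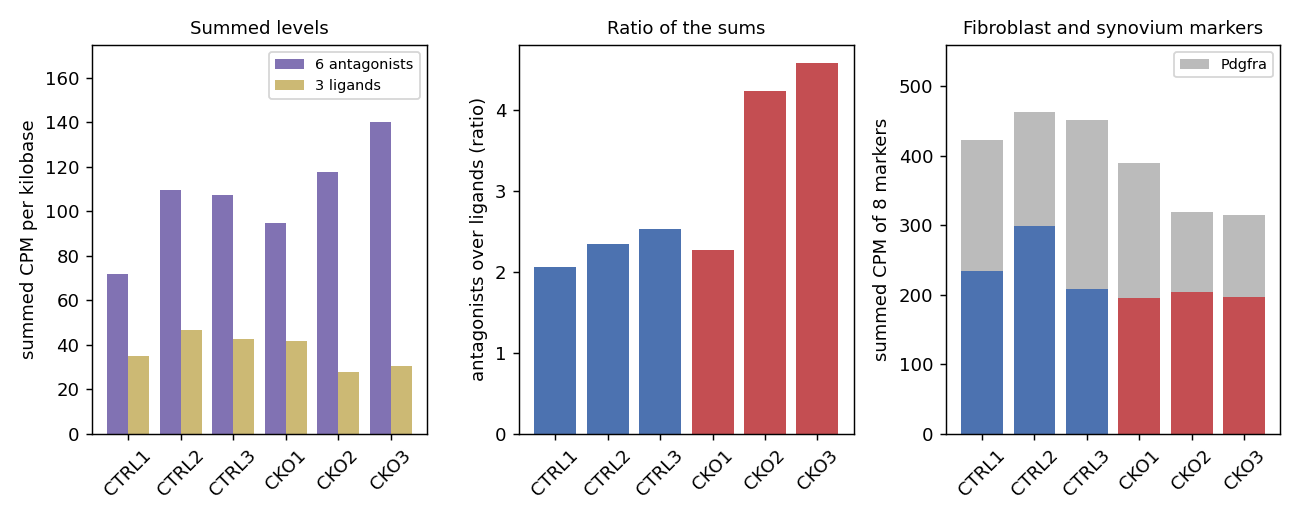
Left, summed CPM per kilobase of the 6 antagonists and the 3 ligands in each library; middle, the ratio of those sums; right, the summed CPM of 8 fibroblast and synovium markers, with Pdgfra in grey on top of the other 7. In the middle and right panels CTRL is in blue and CKO in red. CKO1 has a ratio of 2.28, like the CTRL libraries, while CKO2 and CKO3 are at 4.24 and 4.58, and without Pdgfra the marker sums of the 3 CKO libraries lie at 196 to 204 CPM.

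The rest of the BMP system was read from a list of 55 genes taken by role, of which 46 passed the filter. Of these 0 passed the adjusted threshold (edgeR, against 0.00615% of all genes). An unadjusted edgeR p under 0.05 was found for 2 of 46, against 6.5% of all genes. With DESeq2 0 passed, against 0.54% of all genes, and with limma-voom 0 passed, against 0.00615%. The groups did not overlap for 3 of 46, or 6.52% against 12.3% of all genes, with Rgma, a BMP co-receptor, higher and Nbl1 and Crim1 lower. Rgma was separated by a narrow margin, at 6.38 CPM in CTRL3 and 6.40 CPM in CKO3. Its log2 fold change was 0.25 ± 0.24 (edgeR unadjusted p = 0.330). The median log2 fold change was -0.05.

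Among 8 other extracellular modulators tested, 4 were above 0 and 4 below. Nbl1 (DAN), an antagonist of the gremlin family, measured 305, 343 and 306 CPM in CTRL and 284, 217 and 234 CPM in CKO. Every CKO library lay below every CTRL library, and the log2 fold change was -0.38 ± 0.11 (edgeR adjusted p = 0.658). Crim1, a membrane protein with chordin-like repeats, was at 76.4, 83.9 and 81.2 CPM in CTRL and 71.4, 64.6 and 66.8 CPM in CKO. The fit gave -0.25 ± 0.09 on the log2 scale (edgeR adjusted p = 0.7005). Twsg1, which binds chordin and BMPs, was the most abundant per kilobase, with a log2 fold change of 0.05 ± 0.08. Nbl1 and Crim1 thus had values on the opposite side of 0 from Chrdl1.

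Of 9 other ligands tested, 3 were above 0 and 6 below. Gdf6, a ligand of joint formation, was at 61.9, 55.0 and 48.7 CPM in CTRL and 65.2, 18.3 and 21.3 CPM in CKO. Its log2 fold change was -0.66 ± 0.43. CKO1 was the highest library and CKO2 and CKO3 the lowest, the same split inside CKO as for Bmp2. The log2 fold change was -1.48 without CKO1 and -0.35 without CKO2. Bmp3, a ligand that opposes the others, was at 69.8, 60.5 and 42.9 CPM in CTRL and 63.6, 60.5 and 107 CPM in CKO (a difference of 0.41 ± 0.25 in log2, and 0.11 without CKO3). Bmp5, the most abundant of these ligands per kilobase, had -0.20 ± 0.17.

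The 2 tested proteases that cut chordin, Bmp1 and Tll1, had log2 fold changes of -0.06 ± 0.12 and -0.08 ± 0.33. Of 12 receptors and co-receptors 4 were above 0 and 8 below. The type I receptor Bmpr1b, which also serves GDF5, was at 10.1, 3.99 and 3.61 CPM in CTRL and 8.37, 10.0 and 11.8 CPM in CKO. CTRL1 lay inside the CKO range, and the log2 fold change of 0.76 ± 0.40 was 1.40 without CTRL1 and 0.51 without CTRL3. Acvr1, another type I receptor, had -0.20 ± 0.12, and the decoy receptor Bambi, the most abundant per kilobase, had 0.00 ± 0.08.

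Inside the cell, 8 of 11 SMADs and their regulators were above 0 and 3 below. Smad4, the partner of all receptor-regulated SMADs, had -0.20 ± 0.10, and Tob1, an inhibitor of SMAD signalling, had 0.12 ± 0.10. The ID genes are direct targets of BMP signalling. All 4 were below 0, with a median of -0.07, as were 8031 of all 16260 genes tested. Id3 measured 624, 502 and 690 CPM in CTRL and 552, 484 and 499 CPM in CKO. CKO1 lay inside the CTRL range, and the log2 fold change was -0.24 ± 0.12 (edgeR adjusted p = 0.804). Id4 had -0.10 ± 0.12, Id1 -0.01 ± 0.26 and Id2 -0.04 ± 0.07, each smaller than its SE.

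**Figure D4:**
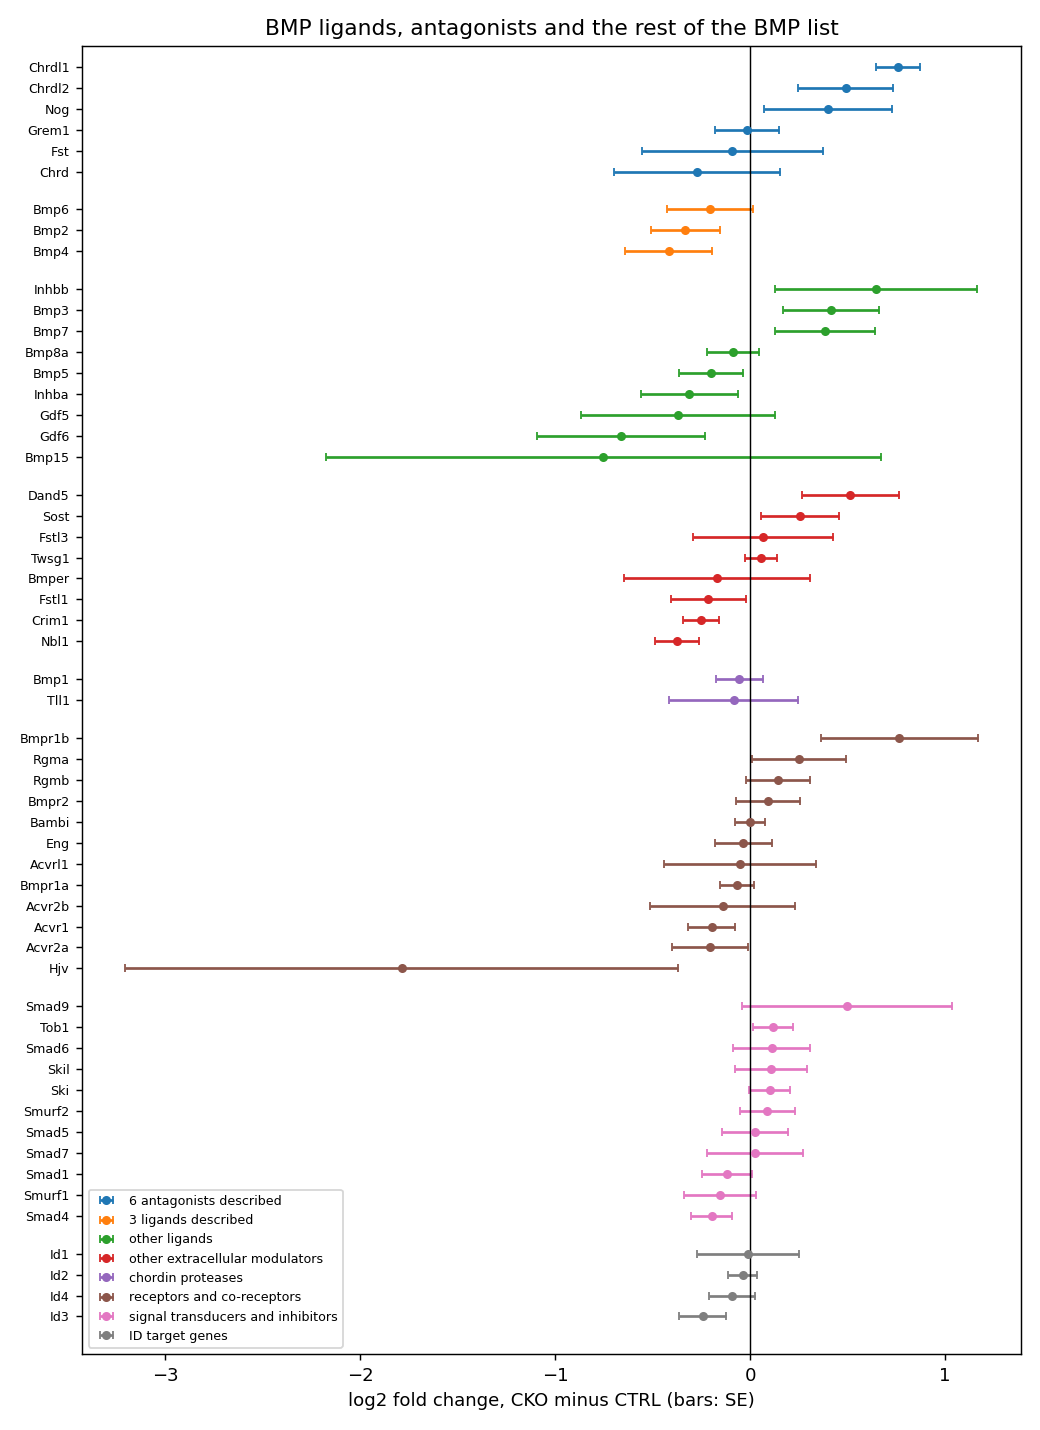
Log2 fold change (CKO minus CTRL) with its SE for the 6 antagonists and 3 ligands described and for the 46 other tested genes of the BMP list, grouped by role. Chrdl1 at 0.76 has an SE of 0.11. The 3 ligands and the 4 ID genes lie at or below 0, and the SE bars of Bmp6, Id1, Id2 and Id4 cross 0.

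The genes whose levels were most like Chrdl1 over the 6 libraries (Pearson r of log2 of CPM plus 1, among 10457 genes with a mean of at least 5 CPM) were Slc25a37, Smarca2, Ssh1, Tcea1 and Rbmx. Their r was 0.994, 0.988, 0.986, 0.983 and 0.983. Slc25a37, the mitochondrial iron carrier mitoferrin, was at 29.5, 27.5 and 26.9 CPM in CTRL and 42.8, 45.3 and 46.8 CPM in CKO. With all 5 the groups did not overlap, so the likeness rests largely on the step between the genotypes that Chrdl1 itself has. Of the BMP genes compared, Bmpr1b came nearest, with an r of 0.773 at rank 522, and Chrdl2 had 0.635 at rank 1175.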

How the data were processed

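RNA sequencing of knee articular cartilage gave 6 libraries, 3 CTRL and 3 CKO, grouped by their titles. Per the labels' protocols, libraries were full-length cDNA from a low-input kit. The authors deposited raw read counts per Ensembl gene; the submitters' processing notes name HISAT2 2.2.1, featureCounts 2.0.1, DESeq2 1.30.1 and the build GRCm38, with no settings. Which annotation release was used, and how strand and multi-mapping reads were handled, is not stated in them. A deposited normalized table was not used.

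Symbols, positions and exon lengths came from a GRCm38 annotation that matched 55141 of 55401 identifiers; Hjv was matched through its RefSeq synonym Hfe2. Genes were filtered with filterByExpr, scaled with TMM and tested with edgeR 4.0.16 (R 4.3.3) by glmQLFit and glmQLFTest, group as the only term, with Benjamini-Hochberg adjustment over 16260 genes. The SE is the log2 fold change divided by the square root of F. The fit was tested on simulated data. Libraries of a group differed beyond counting noise (chi-square per degree of freedom 31.4 to 36.5), so none was a duplicate.

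Named were the 9 genes, Scin, per role the 2 genes of smallest p and the most abundant, and the 5 most like Chrdl1. Rgma, Bmp7, Id1, Id2, Txndc5, Thpo and the markers were named after their values were seen. The 9 genes and all lists were chosen with earlier results of these data known. Alternatives were DESeq2 1.42.0, limma-voom (limma 3.58.1), other scaling and filters, robust dispersion, a replicate block and leaving out each library.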

Additional observations from a re-analysis of the deposited data

How the results depend on the processing

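Genes past the adjusted threshold numbered 1 in edgeR, 91 with DESeq2 and 3 with no filter, and 1 to 2 with single libraries left out. Of the 9 BMP ligands and antagonists 1, Chrdl1, passed with DESeq2 (adjusted p = 1.04e-05), and 0 passed under the other 14 alternatives, where its adjusted p ran from 0.0736 to 0.909. For the other BMP genes the count stayed at 0 in all 15. Of the 9 members 6 kept their direction in all 15 alternatives; the exceptions were Grem1, Chrd and Fst. Grem1 turned to 0.0164 with limma-voom and to 0.0052 with the replicate block, and ran from -0.195 to 0.0908 with single libraries left out, Chrd from -0.712 to 0.0148 and Fst from -0.381 to 0.325. Bambi ran from -0.0276 to 0.0445, Bmp1 from -0.139 to 0.0856 and Tll1 from -0.322 to 0.194; the causes were not tested. The labels give a replicate number and state no pairing. With the replicate number as a block 1 gene and 0 members passed. Same-numbered libraries had correlations of -0.0193, 0.0712 and 0.0235 in their deviations, and not every library correlated best with its own number. With 3 libraries per group these correlations cannot decide whether libraries were paired. The log2 difference between CKO and CTRL in the ratio of antagonists to ligands was 0.669 without length correction and 0.637 with geometric means. With single libraries left out it was 0.496 to 0.933. Low counts limit Chrd, Fst and Nog.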
